A study of Ovis aries with 12 samples.

Results

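The comparison described here is the day by pregnancy interaction in the sheep corpus luteum, that is, how far the difference between pregnant and non-pregnant ewes changed between day 12 and day 14. It was taken as the difference between pregnant and non-pregnant ewes on day 14 minus the same difference on day 12, and it used all 12 of the 12 arrays of the series. Each of the 4 groups (day 12 non-pregnant, day 12 pregnant, day 14 non-pregnant and day 14 pregnant) held 3 ewes with 1 array each. RNA of whole glands was hybridised to a bovine expression array, and levels are log2 values made by RMA, an array summary method. Ewes of the pregnant groups were bred to a fertile ram and those of the non-pregnant groups were left unbred, and the breed, the age of the ewes and a check for a conceptus are not given in the sources used here. Groups follow the source labels; the titles conflict with them for 9 of the 12 arrays.

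The corpus luteum forms from the ovulated follicle and secretes progesterone. In a ewe without a conceptus, pulses of prostaglandin F2α from the uterus end progesterone secretion and then dismantle the gland, a process called luteolysis. In early pregnancy the sheep conceptus secretes interferon tau, which changes the release of prostaglandin from the uterus and induces interferon-stimulated genes, also in the corpus luteum. The interaction therefore asks which luteal transcripts differ with pregnancy around the time of luteolysis more, less or in another direction than they did on day 12.

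Most transcripts past the interaction threshold stood apart in the day 14 non-pregnant glands. Protease-activated receptors F2RL1 and F2RL2, the small heat shock protein CRYAB, the transporters ABCC3 and ABCG8, the adhesion protein CDH1 and the contractile protein CNN1 were 1.94-fold to 6.47-fold higher in day 14 non-pregnant than in day 14 pregnant glands, while their fitted levels on day 12 differed between pregnant and non-pregnant ewes by 0.25 or less on the log2 scale. A dim probe set of the insulin receptor INSR was higher there too. The values carry no detection calls, so the 6.47-fold of F2RL1, which was low on the arrays of the other groups, is of uncertain size. The same holds for CDH1. The growth factor TGFB2 and the mitochondrial phosphatase PPM1K had their lowest group means in the day 14 non-pregnant glands, where single arrays overlapped those of other groups. In limma with Benjamini-Hochberg adjustment over 24016 probe sets, 21 passed an adjusted p of 0.05, which is 0.0874% of those tested. Of these, 15 were below 0 (0.0625%) and 6 above 0 (0.0250%), where a value below 0 means that pregnant glands were lower relative to non-pregnant ones on day 14 than on day 12. The 21 probe sets stood for 12 named genes and 9 probe sets without a gene symbol. An unadjusted p under 0.05 was reached by 2262 probe sets, 9.42% of those tested, with 1262 above 0 (5.25%) and 1000 below 0 (4.16%).

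The count of 21 depended on single arrays. Among day 12 non-pregnant arrays, it was 8 when replicate 1 was left out, 6 for replicate 2 and 1 for replicate 3. In the day 12 pregnant group, leaving out replicate 1 gave 3 and replicate 2 gave 1. For the day 14 pregnant group the counts were 10, 6 and 2, in replicate order. The count was 56 and 76 when day 14 non-pregnant replicate 1 or 2 was dropped. All 21 kept their sign in each of these leave-outs, which reuse arrays that chose the 21, so this adds no test. Of the 12 named genes, 0 passed in limma when replicate 3 of the day 12 non-pregnant group was dropped (adjusted p from 0.0560 to 0.118). The same held for replicate 2 of the day 12 pregnant group (0.0901 to 0.196) and replicate 3 of the day 14 pregnant group (0.0787 to 0.193). All 12 passed when day 14 non-pregnant replicate 2 was dropped.

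The arrays fall into batches by their description labels, which name a gene array for 4 arrays (batch A) and a genome array for 8 (batch B), and the fit has a term for it. Whether these names stand for 2 array designs or 2 runs is not given in the sources used here, and batch means no more than this label. Batch A held replicates 2 and 3 of the day 14 non-pregnant group, replicate 3 of each pregnant group and no day 12 non-pregnant array, so an interaction within a batch could be had in batch B only. There, with 1 day 14 non-pregnant array, 6 of the 12 named genes did not pass in limma, with adjusted p = 0.0509 for CNN1, 0.0526 for F2RL1, 0.0590 for F2RL2, 0.0602 for ABCC3, 0.0795 for ABCG8 and 0.0857 for ATP6V1E1. On the first principal component, with 29.6% of the variance, the day 14 non-pregnant arrays lay at 18.1, 33.7 and 40.4 and the other 9 between -13.0 and -7.00. Their median within-group SD was 0.15, against 0.11 to 0.13 in the other groups. In the same arrays, 3′ control probe sets exceeded 5′ ones by 1.29 to 1.43 (log2), against 1.42 to 1.60 elsewhere. Of 8 neutrophil and eosinophil markers 2 had an interaction above 0 (4533 of all 9155 named genes did, the background for such counts in the other lists too). Their median was -0.29, with a mean level of 4.46 to 4.60 in the day 14 non-pregnant and 4.27 to 4.48 in the other glands. The part of either in the results was not tested. STAR, CYP11A1 and HSD3B1, which define steroid-making luteal cells, lay at or above the 98.6th percentile of probe sets on every array, and the follicle markers FSHR, AMH and CYP19A1 lay below the 45th. Because whole glands were used, fewer cells of a type and less RNA per cell cannot be told apart.

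**Figure D1:**
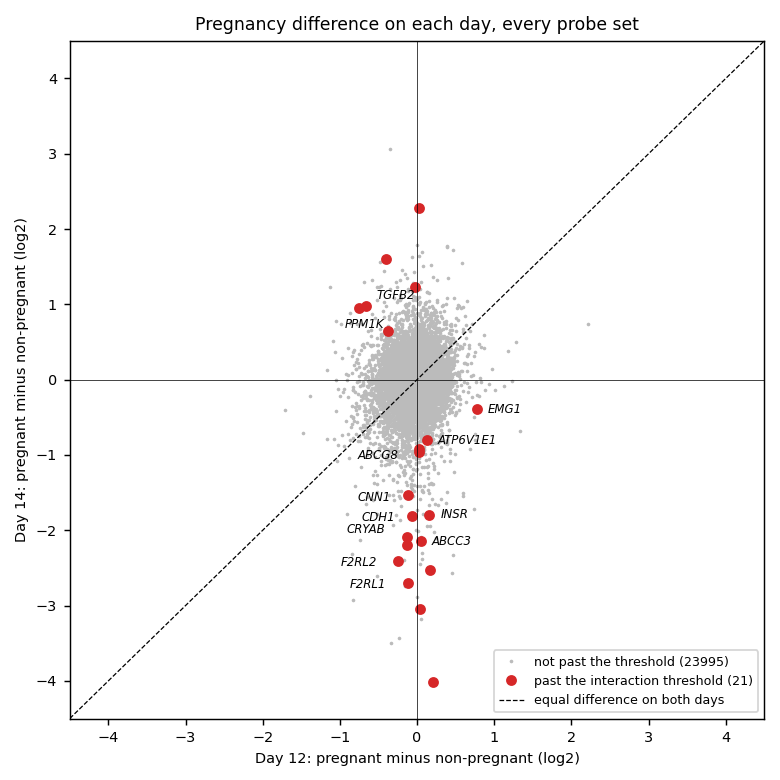
Pregnant minus non-pregnant difference (log2) on day 12 (horizontal axis) and on day 14 (vertical axis) for each of 24016 probe sets, with the 21 past the interaction threshold in red and named where they have a symbol. Most red points lie near 0 on day 12 and far from 0 on day 14, and EMG1 is the one red point to the right at 0.78 on day 12.

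Protease-activated receptors are cell-surface receptors that coagulation and other proteases switch on by cutting their outer end. F2RL1 (protease-activated receptor 2, probe set Bt.28745.1.S1_at) had levels of 6.11, 6.95 and 6.68 in the day 14 non-pregnant ewes, given in replicate order here and below. In the day 14 pregnant ewes they were 3.61, 3.86 and 4.0. The levels were 3.85, 4.0 and 3.41 in day 12 non-pregnant and 4.16, 3.50 and 3.42 in day 12 pregnant ewes. All 3 day 14 non-pregnant arrays thus lay above the other 9, which overlapped among themselves. The interaction was -2.57 ± 0.37 (log2 ± SE from limma, adjusted p = 0.0394) and -2.46 within batch B.

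F2RL2 (protease-activated receptor 3, Bt.1345.1.S1_at) had levels of 7.56, 8.0 and 8.04 in day 14 non-pregnant and 5.37, 5.18 and 5.58 in day 14 pregnant ewes. On day 12 its levels were 5.97, 5.21 and 5.41 in non-pregnant and 5.33, 5.41 and 5.36 in pregnant ewes. Again the day 14 non-pregnant arrays stood above all others, with an interaction of -2.16 ± 0.26 (adjusted p = 0.0132, -2.13 within batch B). Its other probe sets were at -1.47 (adjusted p = 0.149) and -0.09, and did not pass. In the RefSeq annotation of the sheep assembly ARS-UI_Ramb_v3.0, F2RL2, the thrombin receptor gene F2R and F2RL1 follow each other directly. F2R was at -0.25 ± 0.42 (adjusted p = 0.906), with its other probe sets at -0.29 and -0.44, and of the genes around the trio, POC5 was at 0.43, CRHBP at -0.09 and AGGF1 at 0.25, and none passed. In the list of protease-activated receptors and coagulation, 2 of 17 measured genes passed, both lower. Over all 9155 named genes 9 passed lower and 1 higher, which is the background for the passing members of the other lists too. The clotting factor gene F10 did not pass at -0.61 ± 0.14 (adjusted p = 0.184), with a day 12 pregnancy difference of 0.52 and a day 14 difference of -0.09.

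CRYAB, a small heat shock protein that holds unfolding proteins in solution, had levels of 7.82, 8.08 and 7.77 in day 14 non-pregnant and 6.03, 5.91 and 5.56 in day 14 pregnant ewes. On day 12 it was at 5.83, 5.76 and 5.66 in non-pregnant and 5.37, 5.79 and 5.63 in pregnant ewes. The gap between the day 14 non-pregnant arrays and the highest of the other 9 was over 1 log2 unit. With an interaction of -1.96 ± 0.22 (adjusted p = 0.0130, -1.68 within batch B), CRYAB passed in 9 of 12 leave-outs of 1 array, the most among the named genes. In the list of heat shock and endoplasmic reticulum stress genes it was the 1 member of 28 that passed, and 4 of 28 were above 0, with a median of -0.18 against -0.003 over all 9155 named genes. The 6 members at an unadjusted p under 0.05 were all below 0, a share of 21.4% against 5.83% of all named genes, and besides CRYAB they were HSPB8, HSP90AA1, HSPA5, HSPH1 and ATF4. The count of 6 was 3 when day 14 non-pregnant replicate 1 was dropped. HSP90AA1, an abundant cytosolic chaperone, was at -0.74 ± 0.22 (adjusted p = 0.333) and HSPB8, a small heat shock protein, at -0.62 ± 0.18 (adjusted p = 0.311). The mean level of the list was 8.98 to 9.08 on the day 14 non-pregnant arrays and 8.74 to 8.91 on the other 9.

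Transporters were represented by ABCC3 and ABCG8. ABCC3 exports organic anions and conjugates, and its levels were 9.49, 10.36 and 9.86 in day 14 non-pregnant against 7.79, 7.82 and 7.56 in day 14 pregnant ewes. On day 12 it was at 7.89, 7.35 and 7.47 in non-pregnant and 7.86, 7.50 and 7.60 in pregnant ewes, so that the other 9 arrays all lay between 7.35 and 7.89. Its interaction was -2.19 ± 0.31 (adjusted p = 0.0394, -1.79 within batch B). ABCG8, one part of a sterol export pump, was at 5.40, 5.53 and 5.42 in day 14 non-pregnant ewes, and every other array lay between 4.32 and 4.57, with an interaction of -0.98 ± 0.14 (adjusted p = 0.0328). In the list of ABC and solute carrier transporters, which does not hold ABCG8, 1 of 23 members passed, which was ABCC3. The glucose transporter SLC2A1 was at -1.08 ± 0.23 (adjusted p = 0.155) and the lactate transporter SLC16A1 at -0.79 ± 0.24 (adjusted p = 0.337).

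CDH1, the adhesion protein E-cadherin of epithelial junctions, had levels of 5.39, 6.19 and 6.47 in day 14 non-pregnant ewes, while the other 9 arrays lay between 3.77 and 4.36. The interaction was -1.74 ± 0.27 (adjusted p = 0.0481, -1.58 within batch B). A second CDH1 probe set, dim with a mean level of 3.15, was at -0.09 (adjusted p = 0.895). CNN1, calponin, which binds actin in smooth muscle, was at 7.78, 7.98 and 7.61 in day 14 non-pregnant ewes and between 5.94 and 6.48 elsewhere, with an interaction of -1.43 ± 0.22 (adjusted p = 0.0456, -1.60 within batch B). CNN1 passed in 2 of 12 leave-outs, the fewest among the named genes. It was the 1 of 12 measured smooth muscle and pericyte markers that passed, and the list as a whole lay on the other side of 0, with a median of 0.27 (0.13 without a batch term and 0.15 within batch B) and 9 of 12 above 0. The mean level of these markers was 7.39 to 7.56 in day 14 non-pregnant glands, within the 7.32 to 7.61 of the other groups. MYH11, the smooth muscle myosin heavy chain, was at 0.72 ± 0.28 (adjusted p = 0.428), and KCNJ8, a potassium channel of pericytes, at 0.53 ± 0.26 (adjusted p = 0.566).

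The INSR probe set that passed is dim, with a mean level of 3.28 among the dimmest 25% of probe sets (those under 3.59). It was at 4.39, 4.57 and 5.28 in day 14 non-pregnant ewes and at 2.58 to 2.96 on the other 9 arrays, and its interaction was -1.95 ± 0.26 (adjusted p = 0.0267, -1.78 within batch B). The values carry no detection calls, so its level on those 9 arrays cannot be told from background and the size of the difference is uncertain. The 4 other INSR probe sets were at -1.04, -0.32, -0.10 and -0.07, and did not pass. ATP6V1E1, a subunit of the proton pump that acidifies lysosomes, was at 9.24, 9.50 and 9.37 in day 14 non-pregnant ewes and between 8.47 and 8.74 elsewhere. Its interaction was the smallest in size of the 12 named genes, at -0.93 ± 0.14 (adjusted p = 0.0456, -0.87 within batch B), and it passed in 3 of 12 leave-outs. In the list of autophagy and lysosome genes, which does not hold ATP6V1E1, 0 of 36 passed in limma. At an unadjusted p under 0.05 the list held 1 below 0 (2.78%, against 5.83% of all named genes) and 0 above 0 (against 5.23%).

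**Figure D2:**
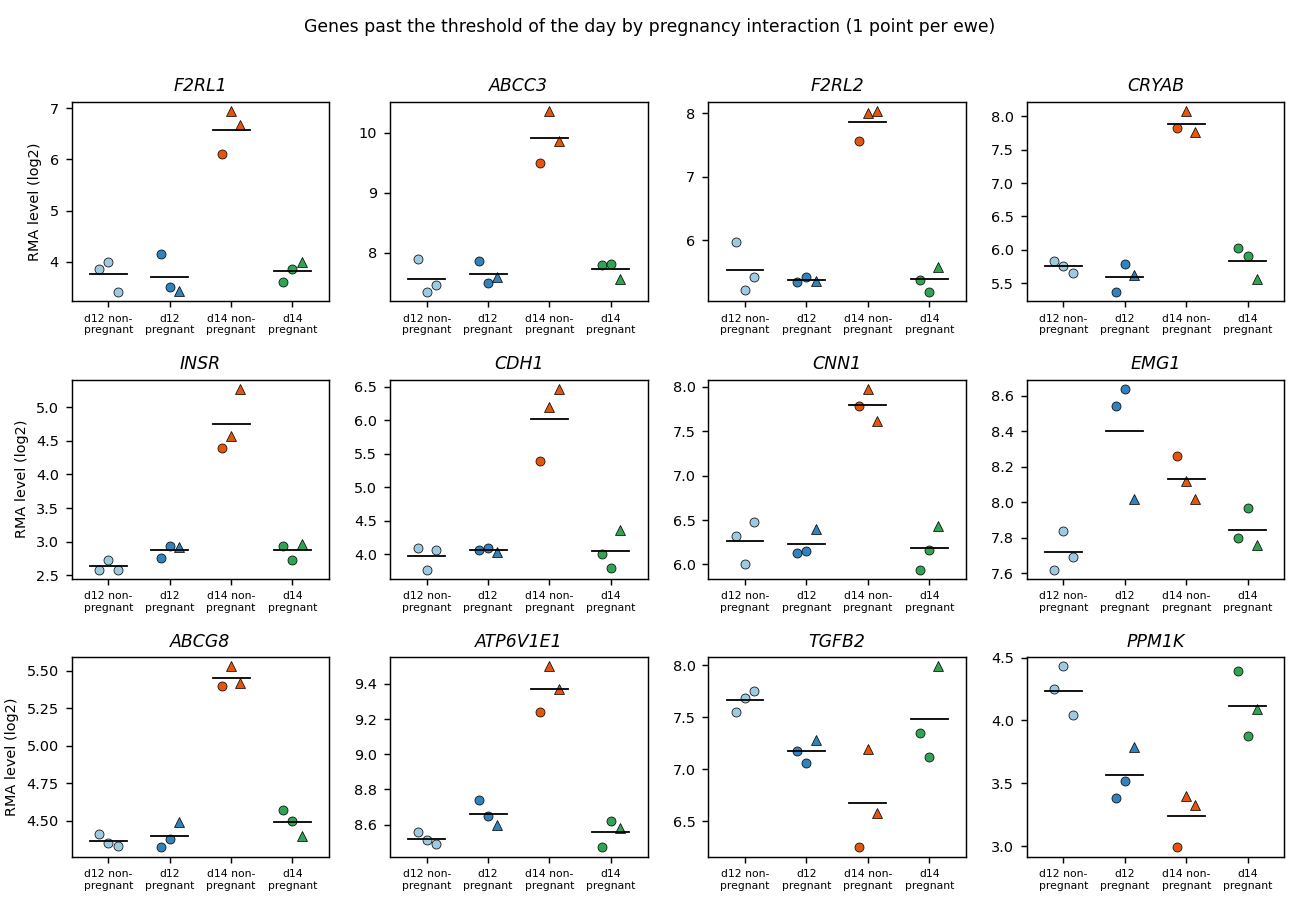
RMA levels (log2) of the 12 named genes past the interaction threshold, ordered from the lowest to the highest interaction, with 1 point per ewe, circles for batch B, triangles for batch A and a line at each group mean. In 9 of the 12 panels the 3 day 14 non-pregnant points lie above all 9 others, while TGFB2, PPM1K and EMG1 show overlap. Of all probe sets 6.53% had these 3 arrays above or below all others. The 12 genes were chosen by their interaction on these same arrays, so the count adds no test.

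TGFB2 is a secreted growth factor of the transforming growth factor beta family. Its levels were 7.55, 7.69 and 7.75 in day 12 non-pregnant and 7.18, 7.06 and 7.28 in day 12 pregnant ewes. On day 14 they were 6.25, 7.20 and 6.58 in non-pregnant and 7.35, 7.12 and 7.99 in pregnant ewes. Thus pregnant glands lay below non-pregnant ones without overlap on day 12, whereas on day 14 the mean was higher in pregnant glands, with overlap through day 14 non-pregnant replicate 2. The pregnancy difference was -0.66 ± 0.17 on day 12 (adjusted p = 0.410, unadjusted p = 0.00253) and 0.98 ± 0.17 on day 14 (adjusted p = 0.0217). The interaction was 1.64 ± 0.25 (adjusted p = 0.0456, 1.53 within batch B) and did not pass without the batch term, at 1.30 (adjusted p = 0.181).

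PPM1K, a mitochondrial phosphatase that activates the breakdown of branched-chain amino acids, had the same order of groups. Its levels were 4.25, 4.43 and 4.04 in day 12 non-pregnant, 3.38, 3.52 and 3.79 in day 12 pregnant, 2.99, 3.40 and 3.33 in day 14 non-pregnant and 4.39, 3.88 and 4.09 in day 14 pregnant ewes. On each day the pregnant and non-pregnant arrays were separate, in opposite directions, with differences of -0.75 ± 0.16 on day 12 (adjusted p = 0.297, unadjusted p = 5.076e-04) and 0.95 ± 0.16 on day 14 (adjusted p = 0.0157). The interaction was 1.70 ± 0.23 (adjusted p = 0.0291, 1.93 within batch B). The mean level of this probe set was low at 3.79, and without detection calls the size of these differences is uncertain. The 3 other PPM1K probe sets were at 0.80, 0.79 and 0.39, and did not pass. The brightest of them had a day 12 difference of 0.26, above 0.

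EMG1, a methyltransferase needed to make the small ribosomal subunit, ran the other way. Its levels were 7.62, 7.84 and 7.69 in day 12 non-pregnant, 8.54, 8.64 and 8.02 in day 12 pregnant, 8.26, 8.12 and 8.02 in day 14 non-pregnant and 7.80, 7.97 and 7.76 in day 14 pregnant ewes. Pregnant glands were thus above non-pregnant ones on day 12 and below them on day 14, without overlap on either day. The day 12 difference of 0.78 ± 0.12 did not pass (adjusted p = 0.162) and neither did the day 14 difference of -0.39 ± 0.12 (adjusted p = 0.135), but the interaction of -1.17 ± 0.17 did (adjusted p = 0.0451). Without the batch term it was -0.97 (adjusted p = 0.103).

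Among the 9 probe sets without a symbol was the one with the smallest p, Bt.5229.1.S1_at. Its levels were 10.10, 10.52 and 10.36 in day 14 non-pregnant ewes and 5.76 to 6.68 on the other 9 arrays. With an interaction of -4.23 ± 0.33 (adjusted p = 9.259e-04, -4.48 within batch B), it was the 1 probe set of the 21 that passed in all 12 leave-outs. Bt.12667.1.S1_at was at -3.09 ± 0.46, Bt.27472.1.A1_at at 2.25 ± 0.25 and Bt.28238.1.A1_at at 2.0 ± 0.23. A dim one was the 1 of the 21 that stood apart in day 14 pregnant glands, with levels of 3.16, 3.11 and 3.07 there and 2.26 to 2.83 on the other 9 arrays. Its interaction was 1.01 ± 0.15 (adjusted p = 0.0456). The named genes just inside the threshold were TGFB2 and CDH1. Just outside were TNFRSF12A, the receptor of the cytokine TWEAK, at -3.01 ± 0.48 (adjusted p = 0.0516, and -1.29 ± 0.31 with adjusted p = 0.228 for its brighter probe set) and HSD17B11, a steroid and lipid droplet enzyme, at -1.46 ± 0.23 (adjusted p = 0.0542).

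The 21 probe sets were sorted by the 4 comparisons between pairs of groups from the same fit. A probe set was counted to the day 14 non-pregnant glands where it passed both against day 14 pregnant and against day 12 non-pregnant glands, in the same direction, and in neither of the other comparisons. By this rule 19 of the 21 (90.5%) were sorted to the day 14 non-pregnant glands, 14 higher and 5 lower there. For the day 14 pregnant glands the corresponding count was 0, as was the count of opposite directions on the 2 days. Both of those counts had to be 0 at this threshold in limma, because 0 probe sets passed between pregnant and non-pregnant ewes on day 12 (1847 at an unadjusted p under 0.05, 7.69%) and 0 between the days in pregnant ewes (1063 unadjusted, 4.43%). By contrast, 348 passed between pregnant and non-pregnant ewes on day 14 (1.45%, and 15.4% unadjusted) and 94 between the days in non-pregnant ewes (0.391%, and 11.7% unadjusted). These comparisons share arrays with the interaction, so the sorting describes the 21 and adds no test. With 0 probe sets past on day 12 and 0 between the days in pregnant ewes, the condition on those comparisons left out none. The 19 are therefore not shown to have changed in the day 14 non-pregnant glands alone.

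Without a threshold, the group whose removal left the other 3 means closest together was the day 14 non-pregnant group for 19 of the 21, against 40.9% of all probe sets. The share was 61.8% among the 2262 probe sets with an unadjusted interaction p under 0.05 in limma. For 17 of the 21 all 3 day 14 non-pregnant arrays lay beyond the other 9, which held for 6.53% of all probe sets. The 21 were chosen by their interaction on these same arrays, so both counts describe them and add no test. When the comparisons were read at an unadjusted p of 0.05, 16 of the 21 fell to the day 14 non-pregnant glands and 5 to opposite directions, namely PPM1K, TGFB2, EMG1, Bt.28238.1.A1_at and the dim unnamed probe set that was highest in day 14 pregnant glands. With the interaction also at an unadjusted p, a rule chosen after seeing the data, 987 of 2262 (43.6%) fell to the day 14 non-pregnant glands, 112 (4.95%) to the day 14 pregnant glands and 115 (5.08%) to opposite directions. Of those 115, 79 were lower in pregnant ewes on day 12 and higher on day 14, and 36 the reverse. An unadjusted p under 0.05 on both days in the same direction was reached by 301 probe sets (1.25%), and in opposite directions by 115 (0.479%).

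Of the named genes none passed with a change in the day 14 pregnant glands alone, so the nearest are given as values only. IFIT5, an interferon-induced RNA-binding protein, was at 10.29, 10.23 and 10.17 in day 14 pregnant ewes and at 9.59 to 10.15 on the other arrays, so the day 14 pregnant arrays were the 3 highest. Its interaction was 0.82 ± 0.15 (adjusted p = 0.0917). It passed without a batch term (adjusted p = 0.0280), and its day 12 difference was -0.25 (unadjusted p = 0.0282), which sorts it to opposite directions at unadjusted p-values. GBP1, an interferon-induced guanylate-binding protein, was at 1.02 ± 0.21 (adjusted p = 0.149), with levels of 4.16, 4.10 and 4.76 in day 14 pregnant ewes and 3.49 to 4.10 elsewhere, with its lowest day 14 pregnant array level with day 12 non-pregnant replicate 2. KCNQ3, a potassium channel, was at 1.12 ± 0.26 (adjusted p = 0.206). SLC31A1, the copper importer, was at -0.78 ± 0.17 (adjusted p = 0.172), with levels of 9.04, 9.12 and 9.24 in day 14 pregnant ewes that overlapped only day 12 non-pregnant replicate 2 at 9.19. NCF4, a subunit of the phagocyte oxidase, was at -1.22 ± 0.29 (adjusted p = 0.212). Of these 5 genes SLC31A1 was the 1 that the rule put with the day 14 pregnant glands at unadjusted p-values.

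Besides TGFB2, PPM1K and EMG1, the nearest to opposite directions were TNIP1 and GCSH. TNIP1, an inhibitor of NF-κB signalling, was at 6.60, 6.74 and 6.55 in day 14 non-pregnant ewes, 5.99, 6.01 and 6.01 in day 14 pregnant, 5.93, 6.20 and 5.94 in day 12 pregnant and 5.79, 5.74 and 5.76 in day 12 non-pregnant ewes. Its interaction was -0.90 ± 0.15 (adjusted p = 0.0603). GCSH, a carrier protein of mitochondrial glycine cleavage, was at 6.85, 6.63 and 6.26 in day 14 non-pregnant ewes, 7.38, 7.51 and 7.39 in day 14 pregnant, 7.41, 7.44 and 7.36 in day 12 pregnant and 7.79, 7.80 and 7.65 in day 12 non-pregnant ewes. Its interaction was 1.07 ± 0.18 (adjusted p = 0.0678). For both genes the day 12 difference was smaller than the day 14 difference, with 0.26 against -0.64 for TNIP1 and -0.28 against 0.79 for GCSH. Without the batch term the adjusted p was 0.0214 for TNIP1 and 0.0231 for GCSH. Other probe sets of TNIP1 were at -0.49 and -0.19 and another of GCSH at -0.09, and did not pass. AMT, another protein of glycine cleavage, was at 0.71 ± 0.20 (adjusted p = 0.308).

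**Figure D3:**
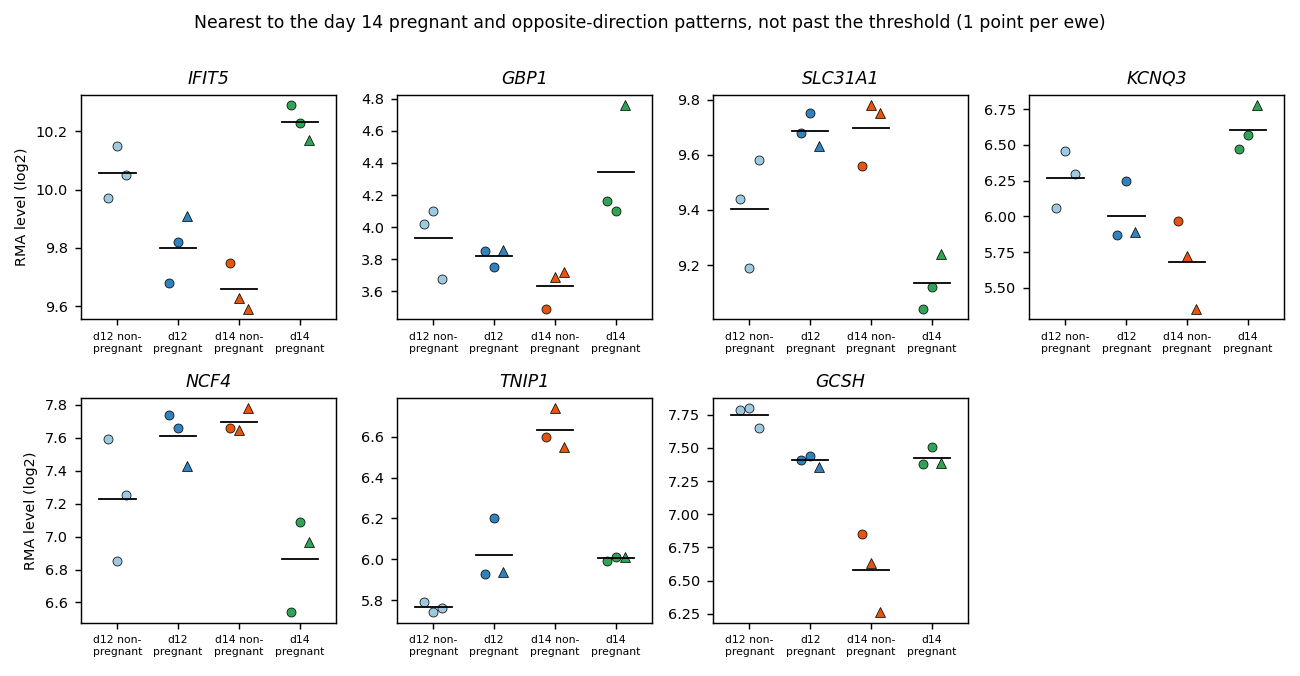
RMA levels (log2) of the 7 genes nearest to a change in the day 14 pregnant glands alone (IFIT5, GBP1, SLC31A1, KCNQ3, NCF4) or to opposite directions on the 2 days (TNIP1, GCSH), with 1 point per ewe, circles for batch B, triangles for batch A and a line at each group mean. None of the 7 passed the interaction threshold, and the 3 day 14 pregnant points of IFIT5 are the highest in its panel.

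Interferon-stimulated genes were the list with the highest median interaction of the 32, at 0.66 against -0.003 over all named genes. Of 42 measured members 38 were above 0 and 0 passed in limma, while 27 were above 0 and 1, IFI30, below 0 at an unadjusted p under 0.05. The 27 are 64.3% of the list, against 5.23% of all named genes, and the count was 18 to 27 over the leave-outs of 1 array and 20 within batch B. The mean level of the list was 6.92 to 7.17 in day 14 pregnant glands, 6.41 to 6.54 in day 14 non-pregnant, 6.65 to 6.70 in day 12 pregnant and 6.58 to 6.94 in day 12 non-pregnant glands. The day 14 non-pregnant arrays were thus the lowest 3, and the day 14 pregnant arrays the highest apart from day 12 non-pregnant replicate 2.

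The fitted day changes of most members had opposite signs in pregnant and non-pregnant ewes. For 33 of the 42 (78.6%) the fitted change from day 12 to day 14 was below 0 in non-pregnant ewes and above 0 in pregnant ewes, against 25.7% of all named genes. At unadjusted p-values 8 members (19.0%, against 5.35% of all named genes) were sorted to the day 14 non-pregnant glands, 7 to the day 14 pregnant glands, 2 to opposite directions (4.76%, against 0.492%) and 11 to none of these. The 7 were ISG15, MX2, IFI27, IRF9, STAT2, DTX3L and RSAD2, a share of 16.7% against 0.492% of all named genes. This count of 7 was 3 without day 14 pregnant replicate 2 and 4 without day 12 pregnant replicate 1 or day 12 non-pregnant replicate 1. The count of 8 was 3 without day 12 non-pregnant replicate 2, 4 without day 14 pregnant replicate 3 or within batch B, and 5 without day 12 pregnant replicate 3 or day 14 non-pregnant replicate 3. ISG15, a ubiquitin-like protein, had levels of 8.99, 10.20 and 8.75 in day 14 pregnant, 8.16, 7.23 and 7.68 in day 14 non-pregnant, 8.0, 8.21 and 8.13 in day 12 pregnant and 8.22, 9.62 and 7.60 in day 12 non-pregnant ewes. Day 12 non-pregnant replicate 2 lay within the range of the day 14 pregnant arrays, and the interaction of 1.66 ± 0.68 did not pass (adjusted p = 0.471). MX1, an antiviral GTPase, was at 0.39 ± 0.36 (adjusted p = 0.792), with fitted pregnancy differences of 0.65 on day 12 and 1.04 on day 14, neither of which passed. Its interaction was 0.13 to 0.95 over the leave-outs and 0.895 within batch B. IFI30, a lysosomal thiol reductase, was at -1.39 (adjusted p = 0.281).

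Markers of T and NK cells stood at 4.73 to 4.99 in mean level in day 14 pregnant glands and at 4.61 to 4.85 in the other groups. Of 17 measured, 16 had an interaction above 0 (4533 of all 9155 named genes did). An unadjusted p under 0.05 was reached by 0, against 5.23% of all named genes above 0 and 5.83% below 0. Macrophage markers overlapped between all groups, with 7 of 12 above 0 and a median of 0.04. Their part in the interferon result was not tested.

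**Figure D4:**
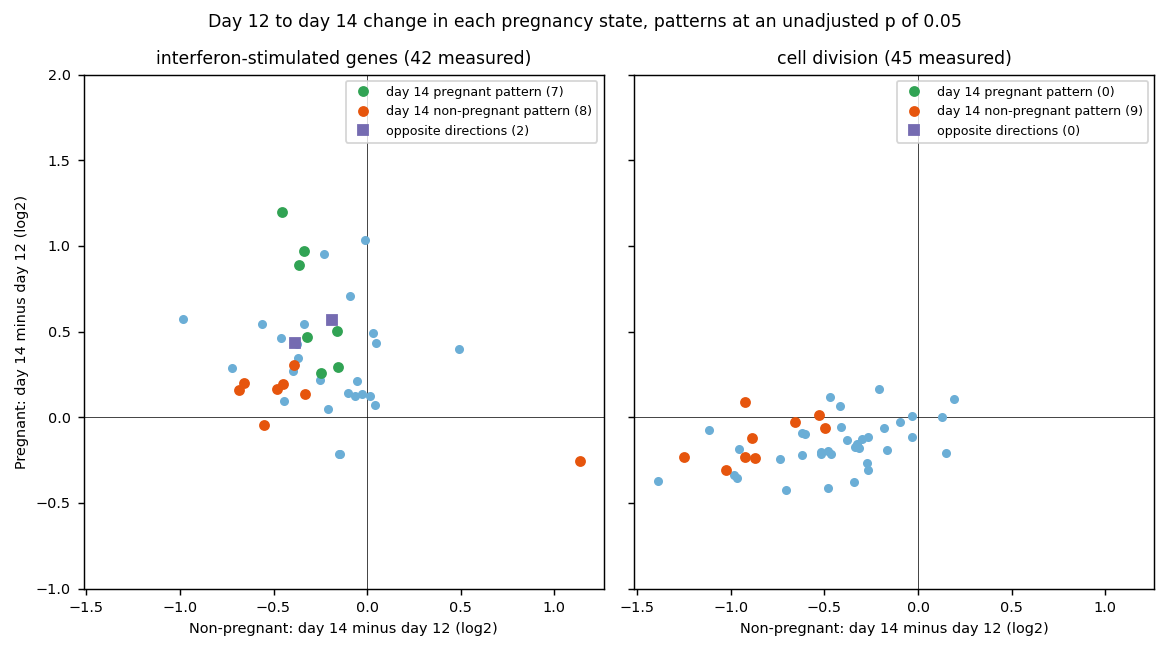
Fitted change from day 12 to day 14 (log2) in non-pregnant ewes (horizontal axis) and in pregnant ewes (vertical axis), with 1 point per member of the interferon-stimulated list (left, 42) and of the cell division list (right, 45) and colours for the pattern at an unadjusted p of 0.05 (light blue for none). Of the interferon-stimulated genes 33 lie to the upper left of 0, while of the 45 cell division genes 3 lie right of 0 and 8 above 0.

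Cell division genes followed with a median of 0.32, which was 0.125 within batch B. It was 0.15 when replicate 3 of the day 14 pregnant group was dropped, 0.21 for replicate 2 of the day 12 non-pregnant group and 0.48 for replicate 1 of the day 12 pregnant group. Of 45 members 0 passed in limma, 38 were above 0 and 11 (24.4%, against 5.23% of all named genes) were above 0 at an unadjusted p under 0.05, among them AURKB at 0.63 and KIF20A at 1.02, a mitotic kinase and a kinesin of dividing cells. The mean level was 5.19 to 5.32 in day 14 non-pregnant glands and 5.47 to 6.07 in the others, without overlap. At unadjusted p-values 9 members (20.0%, against 5.35% of all named genes) were sorted to the day 14 non-pregnant glands, and 0 to the day 14 pregnant glands, a class that held 0.492% of all named genes. The count of 11 went down to 1 when day 14 pregnant replicate 3 was dropped and to 5 when replicate 2 of the day 12 non-pregnant group was. It was 2 within batch B and 18 without a batch term. The count of 9 was 1 and 3 without those same arrays, 5 without day 14 non-pregnant replicate 1 or 2, 2 within batch B and 16 without a batch term.

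Immediate early genes, which cells switch on within minutes of a stimulus, had the lowest median of the 32 lists, at -0.51 with 2 of 21 above 0. That rank went to heat shock genes within batch B (-0.27) and to hypoxia-induced genes (-0.33) when day 14 non-pregnant replicate 3 was dropped. In limma 0 passed. At an unadjusted p under 0.05 there was 1 below 0 (4.76%, against 5.83% of all named genes), JUN at -0.57. The mean level of the list was 7.59 to 9.70 in day 14 non-pregnant glands, a range that spans the 7.76 to 8.25 of all other groups. The ewes of that group thus differed among themselves by over 2 log2 units. The median was -0.20 when replicate 3 of that group was dropped, -0.79 when replicate 1 was, and -0.24 within batch B, and the count of 1 was 8 when replicate 2 was dropped. That median was -0.33 when day 12 non-pregnant replicate 1 was left out. Hypoxia-induced and glycolytic genes had a median of -0.28, with 0 of 32 past in limma and 9 below 0 (28.1%, against 5.83% of all named genes) and 2 above 0 (6.25%, against 5.23%) at an unadjusted p. The count of 9 was 4 or 3 when day 12 pregnant replicate 1 or 2 was dropped, and the median was -0.16 when day 14 non-pregnant replicate 2 was. The 2 above 0 were EGLN1 and VEGFA, the angiogenic growth factor, which was at 1.79 ± 0.35 (adjusted p = 0.132). Its levels were 8.78, 8.21 and 9.23 in day 14 non-pregnant ewes and 9.85 to 10.66 on the other arrays. In antioxidant defence 7 of 33 (21.2%, against 5.83% of all named genes) were below 0 at an unadjusted p, with 0 past in limma. Those 7 became 4 or 3 when day 12 pregnant replicate 1 or 2 was dropped and 2 when day 14 non-pregnant replicate 1 was. In oxidative phosphorylation 0 of 38 reached an unadjusted p under 0.05, against 5.23% of all named genes above 0 and 5.83% below 0.

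**Figure D5:**
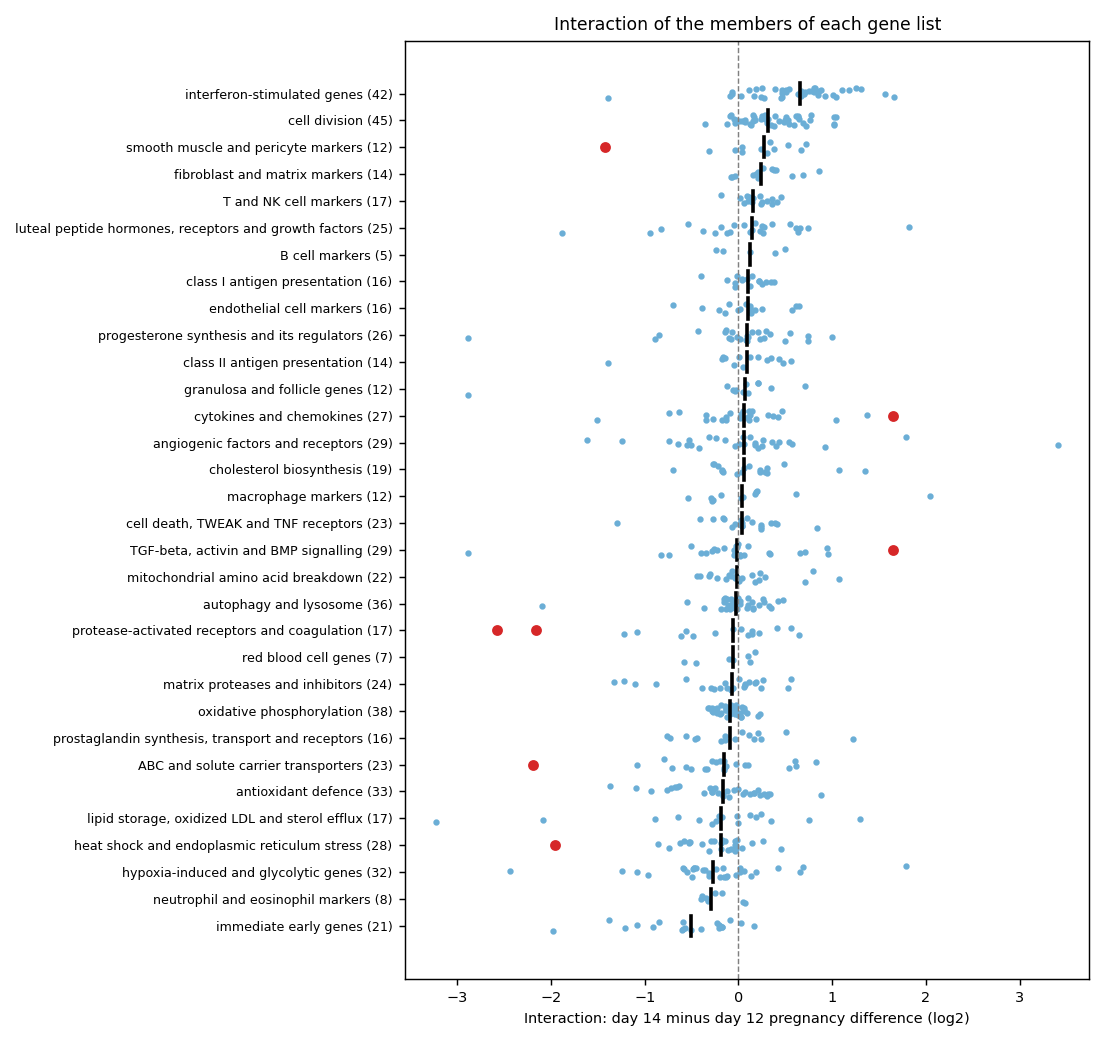
Interaction (log2) of each measured member of the 32 gene lists, with the number measured in brackets, a black bar at the list's median, red for members past the threshold and a dashed line at the median of all named genes. Interferon-stimulated genes lie furthest to the right, with a median of 0.66, and immediate early genes furthest to the left in the fit to all arrays, with a median of -0.51.

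Progesterone synthesis genes did not pass. STAR, which carries cholesterol into mitochondria, had levels of 12.68, 12.18 and 12.21 in day 14 non-pregnant ewes and 12.91 to 13.18 on the other 9 arrays, and its interaction was 0.74 ± 0.20 (adjusted p = 0.272). The steroidogenic enzymes CYP11A1 and HSD3B1 were at 0.27 ± 0.15 (adjusted p = 0.627) and 0.50 ± 0.20 (adjusted p = 0.475). The luteinizing hormone receptor LHCGR was at 0.74 ± 0.31 (adjusted p = 0.492) and the prostaglandin F receptor PTGFR at 0.51 ± 0.32 (adjusted p = 0.656). Within batch B the values were 0.26 for HSD3B1, 0.37 for LHCGR and 0.37 for PTGFR. Over the leave-outs they were 0.18 to 0.45 for CYP11A1, 0.37 to 0.85 for HSD3B1, 0.44 to 1.13 for LHCGR and 0.34 to 0.98 for PTGFR. Without day 14 non-pregnant replicates 2 and 3, left out together after seeing the data, PTGFR was at 0.14 and HSD3B1 at 0.21. For STAR, CYP11A1 and HSD3B1 the day 14 non-pregnant arrays lay below all others, and for PTGFR and LHCGR replicate 1 of that group lay within the range of the other groups. OXT, luteal oxytocin, was at -0.05 ± 0.15 (adjusted p = 0.960). In this list 5 of 26 members were above 0 (19.2%, against 5.23% of all named genes) and 2 below 0 (7.69%, against 5.83%) at an unadjusted p, and 0 passed in limma.

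Other genes of the lists that held a passing gene did not pass themselves. Among growth factor binding proteins IGFBP3 was at -1.89 ± 0.32 (adjusted p = 0.0678), with levels of 9.50, 8.88 and 9.32 in day 14 non-pregnant ewes and 7.60 to 8.69 on the other arrays. IGFBP2 was at -0.94 ± 0.26 (adjusted p = 0.294) and had its larger pregnancy difference on day 12, at 0.71 against -0.23 on day 14. IGFBP6 was at 0.61 ± 0.15 (adjusted p = 0.25). TGFB1 lay opposite to TGFB2, at -0.74 ± 0.19 (adjusted p = 0.272), with levels of 5.89, 6.14 and 5.58 in day 14 non-pregnant ewes and 5.01 to 5.21 elsewhere. BMPR1B, a receptor of bone morphogenetic proteins, was at -0.83 ± 0.23 (adjusted p = 0.291) and the chemokine CCL2, which draws monocytes, at -1.51 ± 0.47 (adjusted p = 0.342). In the list of transforming growth factor beta, activin and bone morphogenetic protein signalling 1 of 29 passed, and in that of cytokines and chemokines 1 of 27, in both cases TGFB2.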

How the data were processed

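Values were used as deposited: log2 levels of 24128 probe sets, which the submitters' processing notes credit to RMA and to the Affymetrix Expression Console, with no detection calls. Software versions and settings are not given in the sources used here. Sheep RNA met bovine probes, which limits comparisons of level between probe sets, and the tests compared arrays within each probe set. Levels were ranked between probe sets for the percentiles of the luteal and follicle markers. The same was done to call probe sets dim and to choose the brightest probe set of a gene. These rankings carry that limit. After 112 control probe sets were left out, 24016 were tested. GEO's annotation named 1 gene for 13292 of them, several for 86 and none for 10638, which gave 9155 symbols, and these can be old. All 12 symbols named for passing genes occur in the sheep gene table, which was used for gene order only. All 12 arrays were used and 0 columns were left out. No 2 arrays held the same values.

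A mean per group and an additive batch term were fitted with limma 3.58.1 in R 4.3.3 (7 residual and 4.391 prior degrees of freedom). Tests were two-sided, with Benjamini-Hochberg adjustment over all probe sets and a threshold of 0.05. Values after ± are standard errors. The number of arrays, 3 per group, limits the precision, and p-values measure the spread between ewes. A gene with several probe sets counted in its list by the brightest, and lists got no test. The script was tested on simulated data.

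Named genes are up to 15 with the largest interaction past the threshold per direction, up to 8 per pattern, the 5 nearest to an empty pattern, up to 3 members of each list with a passing member, and 9 reference genes (ISG15, MX1, VEGFA, OXT, PTGFR, LHCGR, STAR, HSD3B1 and CYP11A1). Other members of the interferon, cell division, hypoxia, heat shock and immediate early lists and the neighbours of F2RL1 were named after their values were seen. The members, the 32 lists and the tests were chosen with earlier results of these data known. Alternatives tried were array weights by group, batch B only, a random block for batch, no term for batch, a trend with a robust prior, no dim probe sets, 1 probe set per gene, unadjusted p-values within the patterns and leaving out each array.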

Additional observations from a re-analysis of the deposited data

Results flagged for a closer look

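Each result named here is one where the pregnancy difference differed between day 12 and day 14 by the interaction test in limma at an adjusted p of 0.05, with 3 ewes per group. This held for 21 probe sets. Among named genes the interaction was 1.70 for PPM1K and 1.64 for TGFB2. It was -2.57 for F2RL1, -2.19 for ABCC3, -2.16 for F2RL2, -1.96 for CRYAB, -1.95 for INSR, -1.74 for CDH1, -1.43 for CNN1, -1.17 for EMG1, -0.98 for ABCG8 and -0.93 for ATP6V1E1. Among probe sets without a symbol it was -4.23 for Bt.5229.1.S1_at, -3.09 for Bt.12667.1.S1_at, 2.25 for Bt.27472.1.A1_at and 2.0 for Bt.28238.1.A1_at. The first of these 4 kept an adjusted p of 0.00869 or less in all 12 leave-outs of 1 array.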

How the results depend on the processing

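The sign of all 21 interactions was the same under every alternative that measured them, but the count was not. The 21 were chosen on arrays that these alternatives reuse, so the shared sign adds no test. Without a batch term, or with batch as a random block, 50 probe sets passed (24 higher, 26 lower), with 45 or 46 sorted to the day 14 non-pregnant glands and 45 with that group standing apart; 18 of the 21 remained in both. Batch B alone gave 59 (10 higher, 49 lower, 49 sorted, 56 standing apart), with 12 of the 21. Leaving out day 14 non-pregnant replicates 2 and 3, chosen after seeing the data, gave 59 (13 higher, 46 lower, 52 sorted, 57 standing apart), with 16 of the 21. Without the dimmest 25% of probe sets 3 were higher, and with 1 probe set per named gene 7 passed, 0 higher and 7 lower. Unadjusted comparisons put 5 into opposite directions, and with the interaction unadjusted too the patterns held 987, 112 and 115. Leaving out 1 array gave 1 to 76 in total, 0 to 23 higher, 1 to 62 lower, 1 to 72 sorted to and 1 to 73 standing apart in the day 14 non-pregnant group. OXT turned to 0.0296 without a batch term, 0.0355 with the random block, 0.0129 in batch B and ranged from -0.1332 to 0.0241 over the leave-outs, above 0 without day 14 pregnant replicate 3. The cause of these shifts was not tested. Where an array was left out, or batch B left 1 day 14 non-pregnant array, the spread was pooled over groups. No paired analysis was made because the titles name a different ewe for each array. The labels give no replicate numbers, and those used here follow the order of the arrays in the series within each group. The deposited values carry no detection calls, so dim probe sets such as that of INSR cannot be told from background.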
